A study of Mus musculus with 24 samples.

Results

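Dkk2, Dkk3, Sfrp1, Sfrp2, Wnt5a and Axin2 are 6 mouse genes of the Wnt pathway, of which 5 encode secreted proteins that carry or block the signal and the last, Axin2, encodes an intracellular brake. They were followed through 24 mRNA-seq libraries of mouse embryonic fibroblasts (MEFs). The 6 genes were picked by name out of 47480 rows of the count table, and Dkk2 was chosen by measured values of these libraries, namely a lower level with Dexa after control siRNA that is not seen after siCop1. All 6 passed the filter on low counts that left 14772 genes for testing. Because its Dexa and siCop1 values served to choose it, those values of Dkk2, and their differences between conditions, are given below as a description with no test. Only its response to KL001 was tested. The KL001 comparisons reuse libraries that served the choice, so these tests are not independent of it.

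The fibroblasts were wild type, and every library came from them. Cells had received a control siRNA (siCTRL) or an siRNA against Cop1 (siCop1), were kept in DMSO or in KL001, and were left without Dexa or given Dexa, the name used in the labels. The 3 factors were fully crossed, which gives 8 groups of 3 libraries: siCTRL in DMSO, siCTRL in DMSO with Dexa, siCTRL in KL001, siCTRL in KL001 with Dexa, and the same 4 conditions with siCop1. Cop1 is a substrate receptor of a cullin 4 ubiquitin ligase, while KL001, a carbazole compound, slows the breakdown of cryptochromes, the clock repressors that the series' title places upstream of this ligase. The sources used here do not give doses, exposure times, siRNA sequences or the age of the embryos. Nothing says whether the 3 libraries of a group came from separate cultures, so a p-value here measures only the spread among these libraries, which may be technical. In such bulk libraries, fewer cells of a type and less RNA per cell cannot be told apart.

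Wnt proteins are secreted ligands that bind Frizzled receptors. With the co-receptors Lrp5 and Lrp6 they stop the destruction complex, built on Axin, from degrading beta-catenin, which then turns on target genes with Tcf and Lef factors; other Wnts, Wnt5a among them, signal mainly without beta-catenin through receptors such as Ror2. Outside the cell, Dkk proteins act at Lrp5 and Lrp6 and secreted Frizzled-related proteins (Sfrp) bind Wnts or Frizzleds, while Axin2 is a target of the pathway that feeds back on it. Fibroblasts are a common source of these secreted factors in connective tissue.

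The stretch of 250 bases before the annotated start of transcription is shown for Dkk2, Sfrp2 and Axin2. These are the 3 of the 6 genes with an entry in the promoter set used. Dkk2 and Sfrp2 stood lower and Axin2 higher with Dexa in siCTRL cells. The sequences are RefSeq's for build GRCm38.p6, and all 3 lie on the plus strand. They are written 5′ to 3′ and end on the base before the start, at chr3:132085042-132085291 for Dkk2, chr3:83766071-83766320 for Sfrp2 and chr11:108920099-108920348 for Axin2. Capitals mark the matches to AGAACA, the core hexamer of a glucocorticoid response element.
Dkk2: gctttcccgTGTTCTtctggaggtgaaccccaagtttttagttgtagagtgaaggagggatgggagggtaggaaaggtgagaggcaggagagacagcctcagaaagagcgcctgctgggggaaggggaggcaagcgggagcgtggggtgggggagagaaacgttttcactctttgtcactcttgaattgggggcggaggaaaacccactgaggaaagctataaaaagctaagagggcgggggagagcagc
Sfrp2: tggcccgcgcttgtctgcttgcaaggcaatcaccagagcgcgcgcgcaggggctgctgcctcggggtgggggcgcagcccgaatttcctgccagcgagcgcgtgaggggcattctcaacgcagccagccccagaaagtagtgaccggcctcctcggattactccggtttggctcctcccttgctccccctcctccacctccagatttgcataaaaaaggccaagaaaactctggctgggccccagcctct
Axin2: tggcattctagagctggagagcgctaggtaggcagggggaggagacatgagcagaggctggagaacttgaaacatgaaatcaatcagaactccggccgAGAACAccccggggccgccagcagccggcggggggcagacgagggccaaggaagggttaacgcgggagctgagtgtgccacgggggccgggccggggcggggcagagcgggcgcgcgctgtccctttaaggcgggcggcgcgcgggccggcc

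AGAACA was found on the opposite strand of the Dkk2 stretch, 241 to 236 bases before the start, and on the given strand of the Axin2 stretch, 152 to 147 bases before it. The Sfrp2 stretch held no match, and 16.1% of the 32851 promoters of the same length held at least 1. None of the 3 stretches held the AP-1 site TGANTCA, found in 6.75% of all promoters, the E-box CACGTG, in 6.02%, the Tcf/Lef motif CTTTGAT, in 3.21%, or the ETS motif CCGGAA, in 12%, each searched on both strands. GC content was 55.6% for Dkk2, 63.6% for Sfrp2 and 69.2% for Axin2, against a median of 52.4% over all promoters. A match is a run of letters and not a measured binding site.

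The libraries held between 21409988 and 27875023 counts each (median 25337292), and no pair of libraries was identical. The targeted gene, Cop1, listed as Rfwd2, stood at 25.0 to 29.7 CPM (counts relative to the library's TMM-scaled total) in the siCTRL libraries and at 4.33 to 5.79 CPM in the siCop1 libraries, with no overlap. Fkbp5, a glucocorticoid receptor target, stood at 36.4 ± 0.969 CPM (SD, n = 3) in siCTRL DMSO and at 719 ± 7.13 CPM (SD, n = 3) with Dexa. All 8 fibroblast markers listed were present in every library, but 6 siCTRL libraries stood apart by heart muscle markers. The summed level of those 7 heart genes was 49.9, 13.8 and 19.5 CPM in the siCTRL DMSO libraries, 67.7 CPM in replicate 2 of siCTRL DMSO with Dexa, 59.3 CPM in replicate 2 of siCTRL KL001 and 17.5 CPM in replicate 2 of siCTRL KL001 with Dexa. Every siCop1 library stood at 1.01 to 1.86 CPM, and the remaining siCTRL libraries stood at 0.797 to 1.32 CPM. High heart markers were thus seen in siCTRL libraries only, and outside siCTRL DMSO in replicate 2 alone. In DMSO without Dexa, where each control library carries them, heart markers differed between the siRNAs with no overlap. Their part in the results was not tested, but each result was also computed without replicate 2 of the last 3 groups. These 3 are the left-out heart-marker libraries named below, and the siCTRL DMSO libraries, also high, stayed in. Results that crossed the threshold in that run are given below with both values. Other lists moved with the treatments too, and their part in the results was not tested either. The summed level of the 4 cartilage markers was higher with Dexa in all 4 conditions with no overlap, for example 56.3 to 59.4 CPM in siCTRL DMSO against 79.4 to 82.6 CPM with Dexa, and 54.3 to 57.9 CPM in siCop1 DMSO against 68.9 to 75.4 CPM with Dexa. White blood cell markers were higher with siCop1, at 5.77 to 7.47 CPM in siCTRL DMSO against 7.56 to 12.4 CPM in siCop1 DMSO, and with Dexa at 4.90 to 6.58 against 9.63 to 13.3 CPM in DMSO and 4.65 to 6.63 against 9.62 to 18.4 CPM in KL001; in KL001 without Dexa the groups overlapped. Endothelial markers were low and stood at 2.22 to 2.81 CPM in siCTRL DMSO, 1.28 to 1.75 CPM with Dexa and 1.19 to 1.49 CPM in siCop1 DMSO. Epithelial markers stood at 34.3 to 39.2 CPM in siCTRL DMSO and 22.6 to 29.3 CPM with Dexa. They spread widely within siCop1 DMSO with Dexa, from 29.9 to 67.5 CPM. Neuronal markers stood at 21.3 to 25.9 CPM in siCTRL DMSO and 17.6 to 20.8 CPM in siCop1 DMSO, and no listed marker was at 0 in all libraries. Antisense genes share exonic bases with Sfrp2 (347, Gm26771), Wnt5a (358, Gm2670) and Axin2 (209, Gm11670). Whether the counting used strand is not given, so reads there cannot be told apart, but these antisense genes had at most 148, 8 and 1 counts in any library.

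Sfrp2 was by far the most abundant of the 6 genes. Per kilobase of exon, in siCTRL DMSO, it stood at 626 CPM per kb, Dkk2 at 13.9, Wnt5a at 11.1, Dkk3 at 3.08, Sfrp1 at 0.557 and Axin2 at 0.344 CPM per kb. The ratio of highest to lowest group mean in CPM was 6.28 for Dkk2, a span over the same Dexa and siCop1 values that chose it, 4.03 for Sfrp2 and 3.89 for Sfrp1. It was 2.58 for Dkk3, 2.14 for Axin2 and 1.58 for Wnt5a. The counts behind these levels were 7146 to 37634 per library for Sfrp2, 328 to 2510 for Dkk2 and 1242 to 2317 for Wnt5a. Only 102 to 338 counts stood behind Dkk3, 45 to 111 behind Axin2 and 13 to 66 behind Sfrp1, and the log2 differences of Sfrp1 between single conditions had SEs of 0.257 to 0.367.

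**Figure D1:**
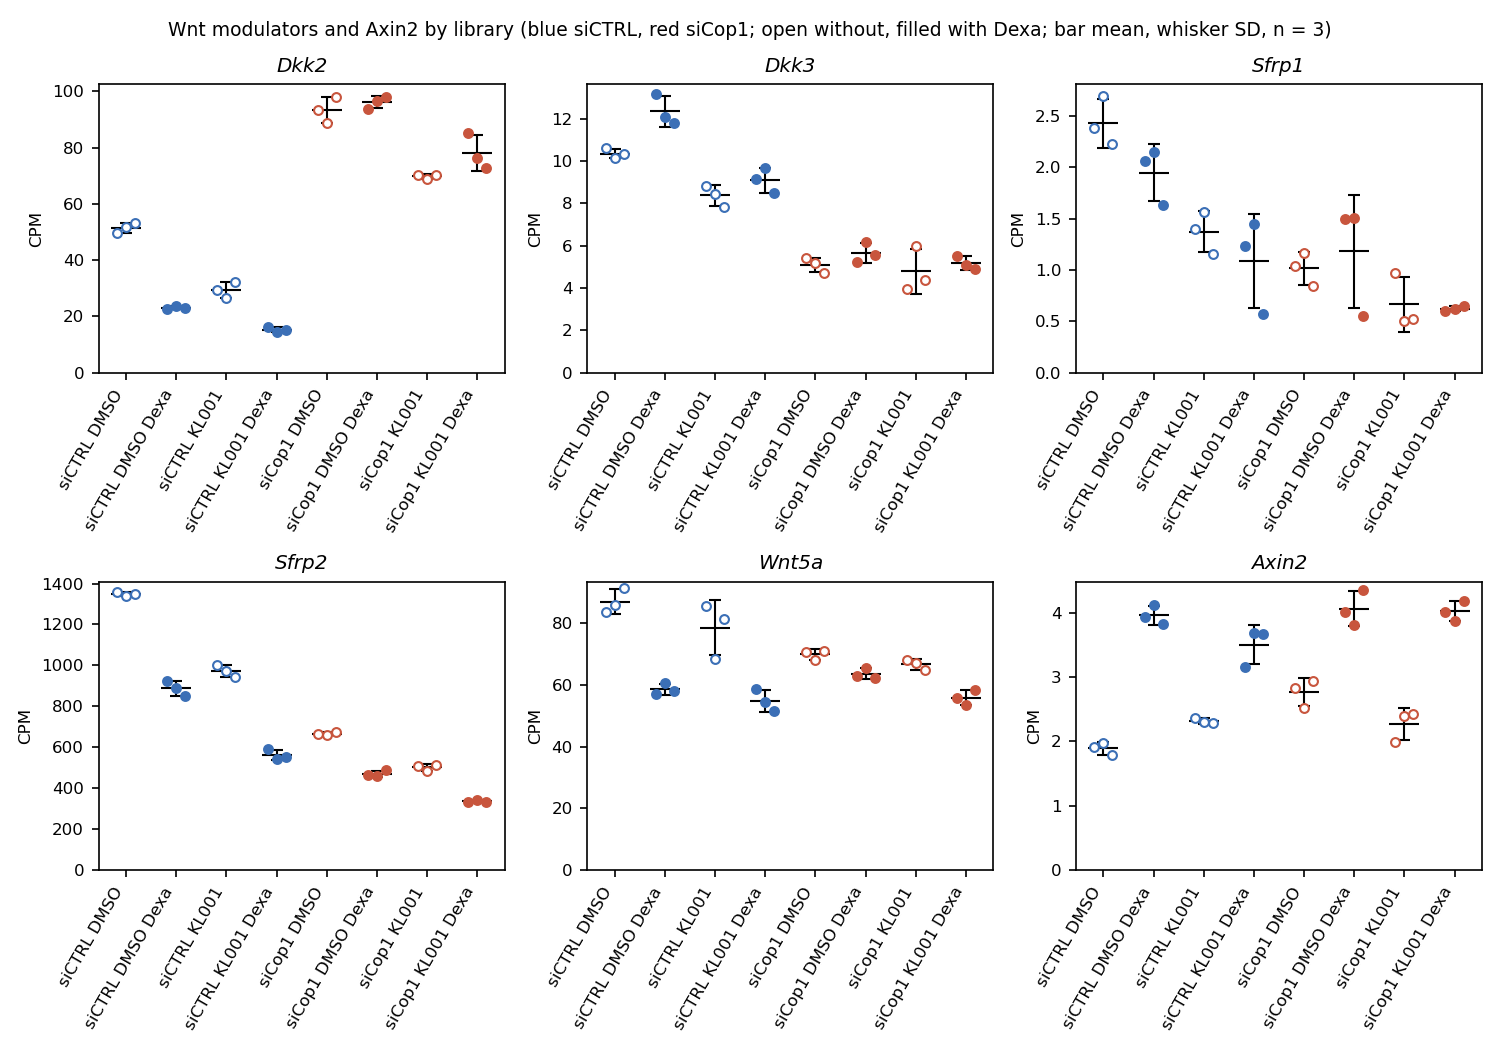
Level of each of the 6 genes in CPM (y axis of each panel, starting at 0) in every library of the 8 groups (x axis), with siCTRL in blue, siCop1 in red, open points without Dexa and filled points with Dexa; the bar is the group mean and the whisker its SD over 3 libraries. The siCop1 libraries of Dkk2 lie between 68.9 and 98.1 CPM and all siCTRL libraries between 14.4 and 53.3 CPM, while for Dkk3 and Sfrp2 siCop1 lies below siCTRL in each matched condition.

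In siCTRL DMSO, 4 of the 5 genes tested changed with Dexa, Dkk3 and Axin2 up and Sfrp2 and Wnt5a down, where 12.7% of all genes tested rose and 14.1% fell. A gene is said to have changed at a p below 0.05 in the quasi-likelihood test of edgeR, two-sided, after Benjamini-Hochberg (BH) adjustment over all 14772 genes. Whether compared groups overlap is given as a description and not as a test, since groups of 3 libraries can separate by chance. In siCTRL KL001 Axin2 rose and 2 genes, Sfrp2 and Wnt5a, fell, against a background of 12.7% higher and 14% lower. In siCop1 DMSO Axin2 rose and Sfrp2 fell (background 12% higher, 11.6% lower), and in siCop1 KL001 Axin2 rose and Sfrp2 and Wnt5a fell (background 12.1% and 12.4%).

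Cop1 knockdown lowered 4 of the 5 tested genes, Dkk3, Sfrp1, Sfrp2 and Wnt5a, and raised Axin2 in DMSO without Dexa, where 12.8% of all genes rose and 16.6% fell. With Dexa, 2 of the 5 fell, Dkk3 and Sfrp2 (background 14.4% higher, 16.7% lower). In KL001 without Dexa the 4 genes that fell were again Dkk3, Sfrp1, Sfrp2 and Wnt5a (14.5% higher, 18.2% lower), and in KL001 with Dexa Dkk3 and Sfrp2 fell (13.7% higher, 16.3% lower). KL001 raised none of the 6 genes, all of which were tested for it. For Dkk2 these tests reuse libraries that served to choose it, so they are not independent of that choice. It lowered Dkk2, Dkk3 and Sfrp2 in siCTRL cells without Dexa (background 3.22% higher, 3.51% lower) and with Dexa (4.98% and 5.58%), and Dkk2 and Sfrp2 in siCop1 cells without Dexa (1.77% and 2.32%) and with Dexa (2.5% and 2.97%). The Dexa, siCop1 and KL001 comparisons from siCTRL DMSO share those 3 control libraries.

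**Figure D2:**
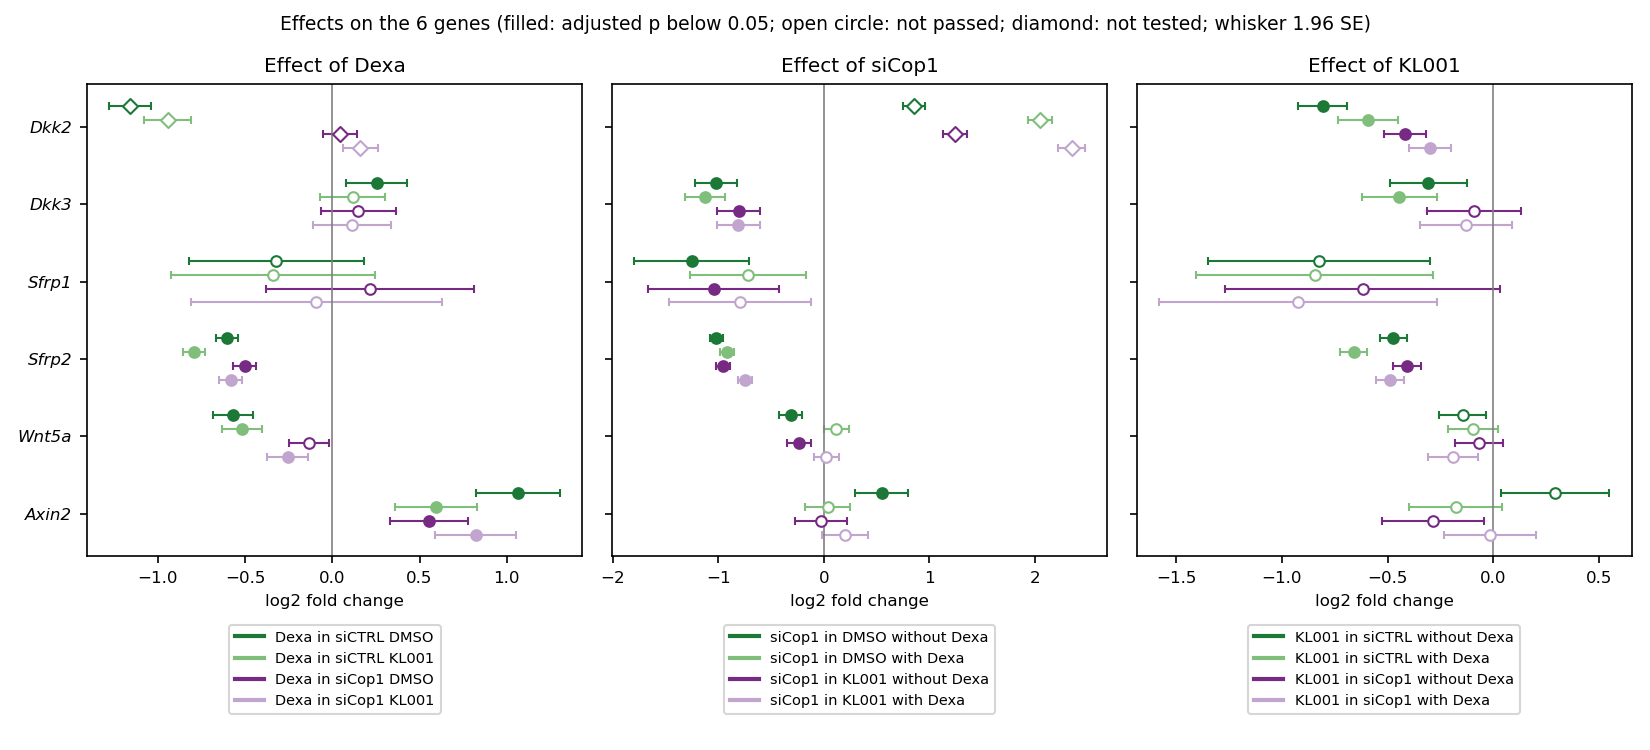
Log2 fold change of each gene (y axis) for Dexa, siCop1 and KL001 (panels), each in its 4 conditions, with 95% intervals (normal approximation) as bars; filled points passed the adjusted p threshold of 0.05, open circles did not, and diamonds were not tested. Sfrp2 lies below 0 in all 12 comparisons, and Dkk2 lies above 0 for siCop1 in all 4 conditions and below 0 for KL001 in all 4. The intervals at the diamonds do not allow for the choice of Dkk2 and are no test.

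Dkk2, which binds Lrp5 and Lrp6 and can block or weakly promote Wnt signalling depending on context, stood lower with Dexa in siCTRL cells and not in siCop1 cells. In siCTRL DMSO it stood at 49.7, 51.8 and 53.3 CPM, and with Dexa at 22.8, 23.8 and 22.8 CPM. In siCop1 DMSO it stood at 93.4, 88.8 and 98.1 CPM, and with Dexa at 93.7, 96.8 and 97.9 CPM. The siCTRL groups with and without Dexa are far apart, whereas the siCop1 groups overlap. The same held in KL001, at 29.4, 26.6 and 32.3 CPM in siCTRL without Dexa and 16.2, 14.4 and 15.3 CPM with it. In siCop1 KL001 the values were 70.4, 68.9 and 70.3 CPM without Dexa and 85.3, 76.3 and 72.8 CPM with it, so that all 3 libraries with Dexa lay above the others. This pattern is what chose the gene.

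On the log2 scale, the Dexa difference of Dkk2 was -1.16 (SE 0.061), or 2.23-fold lower, in siCTRL DMSO, and -0.94 (SE 0.070), or 1.92-fold lower, in siCTRL KL001. It was 0.04 (SE 0.050) in siCop1 DMSO and 0.16 (SE 0.052) in siCop1 KL001. The difference between the siRNAs in this response was 1.20 (SE 0.079) in DMSO and 1.11 (SE 0.087) in KL001. Set against matched siCTRL libraries, siCop1 libraries held 1.81-fold more Dkk2 in DMSO, 4.16-fold more in DMSO with Dexa, 2.37-fold more in KL001 and 5.10-fold more in KL001 with Dexa, with all siCop1 libraries above all siCTRL libraries in each. Ordered by group mean, neighbouring groups of Dkk2 were separated in every step but that between siCop1 DMSO with and without Dexa.

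KL001 lowered Dkk2 in each of the 4 conditions, with every KL001 library below every DMSO library. Each comparison uses DMSO libraries that also served to choose the gene, so its test is not independent of the choice. The log2 change was -0.81 (SE 0.059) in siCTRL, with an adjusted p of 1.17e-10 by the edgeR quasi-likelihood test with BH adjustment, and -0.59 (SE 0.073, adjusted p = 1.45e-06) in siCTRL with Dexa. It was -0.42 (SE 0.051, adjusted p = 1.65e-06) in siCop1 and -0.30 (SE 0.051, adjusted p = 0.000227) in siCop1 with Dexa. These are levels 1.75, 1.51, 1.34 and 1.23 times lower. The KL001 change was numerically smaller after siCop1, by 0.39 (SE 0.078) without Dexa and 0.29 (SE 0.089) with it, differences given as a description like the others of this gene. With single libraries left out, the 4 changes ran from -0.88 to -0.74, -0.64 to -0.55, -0.46 to -0.38 and -0.37 to -0.25, and none lost its call.

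Dkk3, a divergent family member that does not bind Lrp5 or Lrp6 as its relatives do, went the other way from Dkk2 after siCop1. It stood at 10.6, 10.1 and 10.3 CPM in siCTRL DMSO and at 5.40, 5.17 and 4.72 CPM in siCop1 DMSO. With Dexa it stood at 13.2, 12.1 and 11.8 CPM in siCTRL and at 5.22, 6.17 and 5.57 CPM in siCop1. All siCop1 libraries lie below all siCTRL libraries of the same medium. The change was -1.02 (SE 0.10, adjusted p = 2.68e-09) without Dexa and -1.13 (SE 0.097, adjusted p = 1.93e-10) with it, by the edgeR quasi-likelihood test with BH adjustment. In KL001, siCTRL libraries held 8.82, 8.47 and 7.85 CPM without Dexa and 9.14, 9.66 and 8.48 CPM with it. The siCop1 libraries in KL001 held 3.98, 5.99 and 4.41 CPM without Dexa and 5.52, 5.11 and 4.88 CPM with it. Both KL001 comparisons gave -0.81, with adjusted p-values of 4.29e-07 and 4.18e-07 from the same edgeR test.

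Dkk3 rose slightly with Dexa in siCTRL DMSO, by 0.25 on the log2 scale (SE 0.088, adjusted p = 0.0316 in the edgeR test), with no overlap between groups. This call was lost without replicate 1 of siCTRL DMSO with Dexa (adjusted p = 0.116), without replicate 2 or 3 of siCTRL DMSO (adjusted p = 0.0772 and 0.0606) and in DESeq2 (adjusted p = 0.0688). In the other 3 conditions the Dexa differences were 0.12, 0.15 and 0.11, the groups overlapped and none passed (adjusted p = 0.435, 0.379 and 0.565 in edgeR). KL001 lowered Dkk3 in siCTRL with Dexa, with a log2 change of -0.44 (SE 0.091, adjusted p = 0.00142 in edgeR), and in siCTRL without Dexa, at -0.31 (SE 0.093, adjusted p = 0.0420 in edgeR). The second call was lost in DESeq2 (adjusted p = 0.0729) and without the 3 left-out heart-marker libraries (adjusted p = 0.0756 in edgeR). It was also lost in 8 of the fits without 1 library, where the adjusted p reached 0.162 in edgeR. After siCop1 the KL001 differences were -0.09 and -0.13 with overlapping groups (adjusted p = 0.797 and 0.640 in edgeR). In group order, the 4 siCop1 groups of Dkk3 came last, clear of the siCTRL groups, and overlapped one another from neighbour to neighbour, as did siCTRL KL001 with and without Dexa.

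Sfrp1, a secreted Frizzled-related protein that binds Wnts, was scarce and fell after siCop1 in the absence of Dexa. In siCTRL DMSO it stood at 2.38, 2.69 and 2.22 CPM, and in siCop1 DMSO at 1.04, 1.17 and 0.846 CPM. In KL001 the levels were 1.398, 1.56 and 1.16 CPM with siCTRL and 0.975, 0.502 and 0.523 CPM with siCop1. Neither pair of groups overlaps. The change was -1.25 (SE 0.278, adjusted p = 0.000814) in DMSO and -1.05 (SE 0.319, adjusted p = 0.0118) in KL001, by the edgeR quasi-likelihood test with BH adjustment. The KL001 call was lost without replicate 2 (adjusted p = 0.0653) or replicate 3 (adjusted p = 0.0607) of siCop1 KL001.

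With Dexa, Sfrp1 stood at 2.06, 2.15 and 1.63 CPM in siCTRL DMSO and 1.498, 1.504 and 0.549 CPM in siCop1 DMSO. In KL001 with Dexa it stood at 1.24, 1.45 and 0.576 CPM in siCTRL and 0.604, 0.619 and 0.651 CPM in siCop1. The siCop1 differences were -0.72 (SE 0.280, adjusted p = 0.0513 in edgeR) in DMSO, where the groups do not overlap, and -0.80 (SE 0.343, adjusted p = 0.0806 in edgeR) in KL001, where they do. KL001 differences were between -0.92 and -0.62 in the 4 conditions, and none passed. The lowest adjusted p-values in edgeR were 0.0565 in siCTRL with Dexa and 0.0604 in siCTRL. In both, every KL001 library lies below every DMSO library, which is a description and no test. Dexa differences of Sfrp1 ran from -0.34 to 0.21, with the lowest adjusted p at 0.411 in edgeR. Only siCTRL DMSO and siCTRL DMSO with Dexa stood clear of their neighbours in the order of its group means.

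Sfrp2, an abundant fibroblast product of the same family that binds Wnts and Frizzleds, was lowered by each of the 3 factors in every condition. It stood at 1358, 1341 and 1348 CPM in siCTRL DMSO and at 922, 890.3 and 849.8 CPM with Dexa. In siCTRL KL001 it held 1003, 971 and 942 CPM, and with Dexa 589, 541 and 553 CPM. The libraries of siCop1 DMSO held 665, 659.5 and 673 CPM, and with Dexa 466, 457 and 486 CPM. In siCop1 KL001 it held 508, 484 and 512 CPM without Dexa and, lowest of all groups, 332, 340.5 and 332 CPM with it. Replicates lay close together, within 4.44% of the mean (SD) in each group, and no compared pair of groups overlapped.

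Dexa lowered Sfrp2 by a log2 change of -0.60 (SE 0.033) in siCTRL DMSO, -0.79 (SE 0.033) in siCTRL KL001, -0.50 (SE 0.033) in siCop1 DMSO and -0.58 (SE 0.034) in siCop1 KL001. The adjusted p-values were 3.34e-15, 6.74e-18, 3.90e-13 and 1.68e-14 in the edgeR quasi-likelihood test with BH adjustment. Cop1 knockdown gave -1.02 in DMSO, -0.92 in DMSO with Dexa, -0.95 in KL001 and -0.74 in KL001 with Dexa, the weakest with an adjusted p of 2.20e-16 in edgeR. KL001 gave -0.47 in siCTRL, -0.66 in siCTRL with Dexa, -0.41 in siCop1 and -0.49 in siCop1 with Dexa, the weakest with an adjusted p of 1.401e-09 in edgeR. The summed level of the 8 fibroblast markers also differed between the groups: it was 54973 to 58359 CPM in siCTRL DMSO, 53290 to 54146 with Dexa, 48001 to 52609 in siCTRL KL001, 48546 to 50056 in siCop1 DMSO and 41080 to 43129 CPM in siCop1 KL001 with Dexa. The sum was 46866 to 49005 CPM in siCTRL KL001 with Dexa, 46412 to 48028 in siCop1 DMSO with Dexa and 42232 to 43678 CPM in siCop1 KL001. Its part in the Sfrp2 result was not tested. Ordered by group mean, only siCop1 KL001 and siCop1 DMSO with Dexa overlapped.

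Wnt5a, the one Wnt ligand among the 6 genes and the prototype of signalling without beta-catenin, fell with Dexa in siCTRL cells. It stood at 83.6, 85.8 and 91.5 CPM in siCTRL DMSO and at 57.1, 60.6 and 58.2 CPM with Dexa. In siCTRL KL001 it held 85.6, 68.6 and 81.5 CPM, and with Dexa 58.7, 54.5 and 51.4 CPM. Libraries with and without Dexa do not overlap in either medium. Replicate 2 of siCTRL KL001, the library with 59.3 CPM of heart markers, was the low one of its group. Replicate 2 of siCTRL DMSO with Dexa, at 67.7 CPM of heart markers, was the highest of its group. In siCTRL KL001 with Dexa, replicate 2, at 17.5 CPM, was the middle one. The log2 change was -0.57 (SE 0.058, adjusted p = 9.65e-09) in DMSO and -0.52 (SE 0.059, adjusted p = 6.57e-08) in KL001, by the edgeR quasi-likelihood test with BH adjustment.

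After siCop1, Wnt5a stood at 70.8, 68.0 and 71.1 CPM in DMSO and at 63.1, 65.6 and 62.3 CPM with Dexa. In siCop1 KL001 it held 68.2, 67.0 and 64.8 CPM, and with Dexa 55.9, 53.4 and 58.3 CPM. Dexa libraries lay below the others in both media. The Dexa change passed in KL001, at -0.26 (SE 0.059, adjusted p = 0.00160 in edgeR), and did not in DMSO, at -0.14 (SE 0.058, adjusted p = 0.0986 in edgeR). In DMSO it passed without the 3 left-out heart-marker libraries (adjusted p = 0.0195 in edgeR). Knockdown itself lowered Wnt5a without Dexa, with a log2 change of -0.31 (SE 0.057, adjusted p = 9.76e-05 in edgeR) in DMSO and -0.24 (SE 0.057, adjusted p = 0.00201 in edgeR) in KL001. With Dexa the siCop1 differences were 0.12 (adjusted p = 0.131 in edgeR) in DMSO, where all siCop1 libraries lay above all siCTRL libraries, and 0.02 (adjusted p = 0.818 in edgeR) in KL001. The first of these passed without the 3 left-out heart-marker libraries (adjusted p = 0.0389 in edgeR). KL001 differences ran from -0.19 to -0.07 and did not pass. That in siCop1 with Dexa (adjusted p = 0.0646 in edgeR, no overlap) passed without the 3 left-out heart-marker libraries (adjusted p = 0.00864 in edgeR).

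Axin2, a scaffold of the beta-catenin destruction complex and a widely used readout of beta-catenin activity, rose with Dexa in all 4 conditions. It stood at 1.91, 1.98 and 1.79 CPM in siCTRL DMSO and at 3.93, 4.12 and 3.83 CPM with Dexa. In siCTRL KL001 it held 2.37, 2.30 and 2.28 CPM, and with Dexa 3.15, 3.69 and 3.66 CPM. Every library with Dexa lies above every library without it. In siCop1 DMSO the levels were 2.83, 2.53 and 2.94 CPM, and with Dexa 4.01, 3.82 and 4.35 CPM. In siCop1 KL001 they were 1.99, 2.39 and 2.43 CPM, and with Dexa 4.01, 3.87 and 4.18 CPM. The 4 groups with Dexa are the 4 highest in the order of group means, and the upper 3 of them overlap from neighbour to neighbour but not with siCTRL KL001 with Dexa, the lowest of the 4.

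The Dexa change of Axin2 was 1.06 (SE 0.122, adjusted p = 3.74e-08) in siCTRL DMSO, 0.59 (SE 0.121, adjusted p = 0.000281) in siCTRL KL001, 0.55 (SE 0.114, adjusted p = 0.000399) in siCop1 DMSO and 0.82 (SE 0.119, adjusted p = 2.31e-06) in siCop1 KL001, all from the edgeR quasi-likelihood test with BH adjustment. Knockdown raised Axin2 by 0.55 (SE 0.127, adjusted p = 0.00231 in edgeR) in DMSO without Dexa, with no overlap. Elsewhere the siCop1 differences were 0.04, -0.03 and 0.20, with adjusted p-values of 0.843, 0.913 and 0.230 in edgeR. KL001 differences of Axin2 were 0.29, -0.18, -0.28 and -0.01 in siCTRL, siCTRL with Dexa, siCop1 and siCop1 with Dexa, and none passed (lowest adjusted p = 0.309 in edgeR).

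Whether the Dexa response differed between the siRNAs was tested for the 5 genes other than Dkk2. In DMSO 1 of them passed, Wnt5a, where 0.67% of all genes did, and in KL001 1 passed, Sfrp2, where 0.562% did. The Dexa response of Wnt5a was less negative after siCop1 in DMSO by 0.43 (SE 0.082, adjusted p = 0.00556 in edgeR), a call kept in every alternative run. No run left out siCTRL DMSO as a whole, whose libraries all carry heart markers (13.8 to 49.9 CPM). The part of these markers in the Wnt5a difference was not tested. In KL001 the same difference was 0.26 (SE 0.084, adjusted p = 0.262 in edgeR). It was 0.35 (adjusted p = 0.00393 in edgeR) without replicate 2 of siCTRL KL001 and 0.33 (adjusted p = 0.0208 in edgeR) without the 3 left-out heart-marker libraries.

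For Sfrp2 the difference in Dexa response between the siRNAs was 0.21 (SE 0.047, adjusted p = 0.0302 in edgeR) in KL001 and 0.10 (SE 0.047, adjusted p = 0.608 in edgeR) in DMSO. The call in KL001 was lost in 11 of the fits without 1 library, up to an adjusted p of 0.175 in edgeR. Without the 3 left-out heart-marker libraries the difference was 0.17 (adjusted p = 0.201 in edgeR). Dkk2, by comparison, differed by 1.20 and 1.11, values that its choice fixes. Axin2 had -0.51 (SE 0.168, adjusted p = 0.361 in edgeR) in DMSO.

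**Figure D3:**
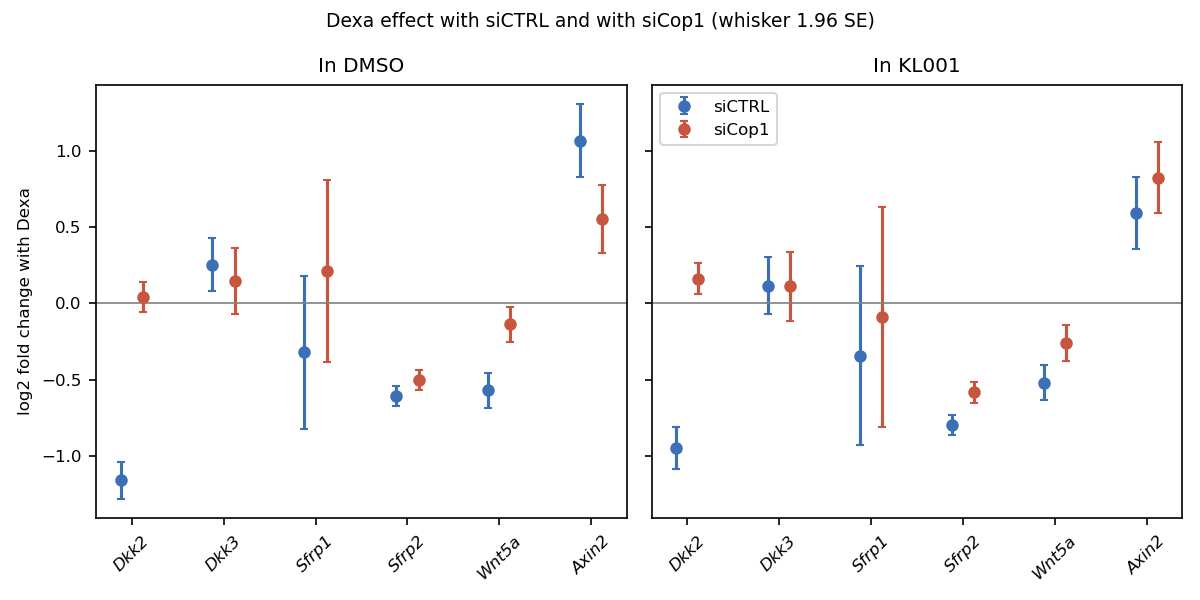
Log2 fold change with Dexa of each gene (y axis) in siCTRL (blue) and siCop1 (red) cells, in DMSO and KL001 panels, with 95% intervals (normal approximation) as bars. Dkk2, chosen for this difference, lies at -1.16 against 0.04 in DMSO, while Wnt5a moves from -0.57 to -0.14 and Sfrp2 from -0.60 to -0.50. The intervals of Dkk2 do not allow for that choice and are no test.

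Differences in response involving KL001 gave no call among the 5 genes. No gene of the 14772 passed for KL001 by Dexa in siCTRL, for siCop1 by KL001 without Dexa or for the difference over all 3 factors, a background of 0% in each by edgeR. At an unadjusted p below 0.05 in edgeR there were 888, 982 and 582 of the 14772 genes, with Axin2 in each and Sfrp2 in the first. A share of 0.05 of all genes is expected below that p with no effect at all, so neither gene is taken as changed here. DESeq2 called 3, 15 and 0 genes. For KL001 by Dexa in siCop1 and for siCop1 by KL001 with Dexa 10 genes passed in each, a background of 0.0677%. For Dkk2, the Dexa response differed between KL001 and DMSO by 0.21 (SE 0.094) in siCTRL and 0.12 (SE 0.072) in siCop1, as a description.

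Other genes of the pathway were taken from a list of 95 by role, of which 71 passed the filter on low counts. In siCTRL DMSO, 10 of the 71 rose and 24 fell with Dexa, where 12.7% of all genes rose and 14.1% fell, so the share that rose is near the background, and the median log2 difference was -0.04 against -0.01 over all genes tested. Of 7 other secreted antagonists and agonists tested, 4 fell and none rose. Rspo3 and Rspo2, R-spondins that keep Wnt receptors at the surface, fell by 1.55 (SE 0.046, from 197 to 67.2 CPM) and 0.98 (SE 0.028, from 580.3 to 294 CPM) on the log2 scale. Frzb, also called Sfrp3, had -0.63 (adjusted p = 0.00248 in edgeR), and Igfbp4, which binds Lrp6 and Frizzled and is named here after its values were seen, -0.24 (adjusted p = 7.91e-06 in edgeR). Several relatives of the 6 genes were close to silent: in any library Dkk1 had at most 6 counts, Dkk4 0, Dkkl1 3, Sfrp5 1, Wif1 9, Sost 4 and Sostdc1 16.

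Among 7 Wnt ligands tested, 1 rose and 3 fell with Dexa in siCTRL DMSO, where 12.7% of all genes rose and 14.1% fell. Wnt4, named after its values were seen, rose by 0.45 (adjusted p = 0.000735 in edgeR) and Wnt16 fell by 1.25 (SE 0.240, adjusted p = 0.00014 in edgeR). Receptors and membrane regulators were split, with 7 of 22 higher and 7 lower. The receptor Fzd9 rose by 2.25 (SE 0.197, from 0.769 to 3.67 CPM), Ror1, a receptor for Wnt5a, by 0.80 (SE 0.151) and Znrf3, a ligase that removes Frizzleds, by 0.73 (SE 0.089), while Apcdd1, a membrane inhibitor, fell by 0.72 (SE 0.055, from 39.1 to 23.8 CPM). Tle1, a co-repressor of Tcf factors, rose by 0.84 (SE 0.062, from 12.6 to 22.5 CPM) and was the 1 nuclear factor of 12 to rise, with 3 falling. Of 6 described targets, 4 fell and 0 rose, with a median log2 difference of -0.18, while Axin2, counted apart, rose. Of 15 cytoplasmic components 2 fell and 0 rose, and the share that fell is close to that of all genes.

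With siCop1 in DMSO, 15 of the 71 rose and 20 fell without Dexa (12.8% and 16.6% of all genes; median -0.07 against -0.01 over all genes). With Dexa, 13 rose and 21 fell (14.4% and 16.7% of all genes; median 0.01 against 0.00). Of the 7 other secreted factors, 1 rose and 4 fell in both. Frzb fell by 1.53 (SE 0.170, adjusted p = 2.89e-08 in edgeR), from 5.09 to 1.77 CPM, Rspo3 by 0.81 (SE 0.044, from 197 to 113 CPM) and Igfbp4 by 0.67 (SE 0.037), and Rspo1 rose by 0.93 (SE 0.203, from 1.31 to 2.48 CPM). Ligands gave 0 higher and 3 lower of 7, with Wnt4 at -1.54 (SE 0.121, from 5.52 to 1.91 CPM) and Wnt9a at -0.84 (SE 0.212). Apcdd1 rose by 0.83 (SE 0.049), from 39.1 to 69.2 CPM, and Rnf43, a ligase that removes Frizzleds, by 0.74 (SE 0.099). Cd44, a described target and surface glycoprotein, rose by 0.47 (SE 0.039), from 208 to 287 CPM. With Dexa the values were 1.0 for Apcdd1, 1.03 for Rnf43, 0.77 for Rspo1, 0.44 for Cd44, -1.26 for Wnt4, -1.24 for Frzb, -1.08 for Fzd9 and -0.81 for Wnt9a, each past the threshold.

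KL001 in siCTRL changed 10 of the 71, with 3 higher and 7 lower, where 3.22% of all genes rose and 3.51% fell, so the share that rose is near the background. Wnt5b, a relative of Wnt5a, fell by 0.54 (SE 0.067, from 24.3 to 16.8 CPM), the receptors Fzd8 and Fzd4 by 0.50 (SE 0.047, from 44.7 to 31.7 CPM) and 0.20 (SE 0.058), and Rspo2 by 0.32 (SE 0.028). Ccnd1 and Myc, described targets that drive the cell cycle, rose by 0.25 (SE 0.032, from 421 to 501 CPM) and 0.20 (SE 0.041), and the receptor Ryk by 0.10 (SE 0.027). The difference in Dexa response between the siRNAs in DMSO passed for 4 of the 71, where 0.67% of all genes passed. Lgr4, a receptor of R-spondins, had -0.53 with Dexa in siCTRL and -0.17 in siCop1, a difference of 0.36 (SE 0.080, adjusted p = 0.0208 in edgeR). Rspo3 went from -1.55 to -1.23 (difference 0.32, SE 0.066, adjusted p = 0.0108 in edgeR) and Tle1 from 0.84 to 0.32 (difference -0.52, SE 0.089, adjusted p = 0.00118 in edgeR). The last was Rspo2, named after its values were seen, with a difference of 0.20 (SE 0.040, adjusted p = 0.00855 in edgeR).

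The genes closest in pattern were found by the root mean square (RMS) difference of log2 CPM over the 8 group means, each gene centred on its own mean, among 11608 genes. Dkk2 had the most distant neighbours of the 6 genes, and its nearest were Ccdc68 at 0.305, Ptpn22 at 0.321 and Mmp3, a matrix metalloproteinase, at 0.347. This distance is not scaled for a gene's span, which was largest for Dkk2 (2.65 in log2). It also rests on the Dexa and siCop1 values that chose Dkk2, so it is a description only. Group means of Mmp3 went from 24.7 to 16.7 CPM with Dexa in siCTRL DMSO and from 98.0 to 72.6 CPM in siCop1 DMSO, so it was lower with Dexa after siCop1 too, unlike Dkk2. Wnt5a was nearest to Etv4, an ETS transcription factor, at 0.0580, then Spats2l at 0.0581 and Prr5l at 0.0599. The means of Etv4 went from 32.3 to 21.5 CPM with Dexa in siCTRL DMSO and from 27.7 to 23.6 CPM in siCop1 DMSO. Dkk3 was nearest to Nrk at 0.1004, Itga1, an integrin chain, at 0.101 and Actg2, a smooth muscle actin, at 0.122. For Sfrp1 the nearest were Ptprv at 0.128, Nell2 at 0.161 and Ptn at 0.181, and for Sfrp2 they were Pgam2 at 0.0960, Pstpip1 at 0.121 and Meox1 at 0.144. Axin2 lay nearest to Trp63 at 0.0943, Osbp2 at 0.114 and Mboat2 at 0.119.

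**Figure D4:**
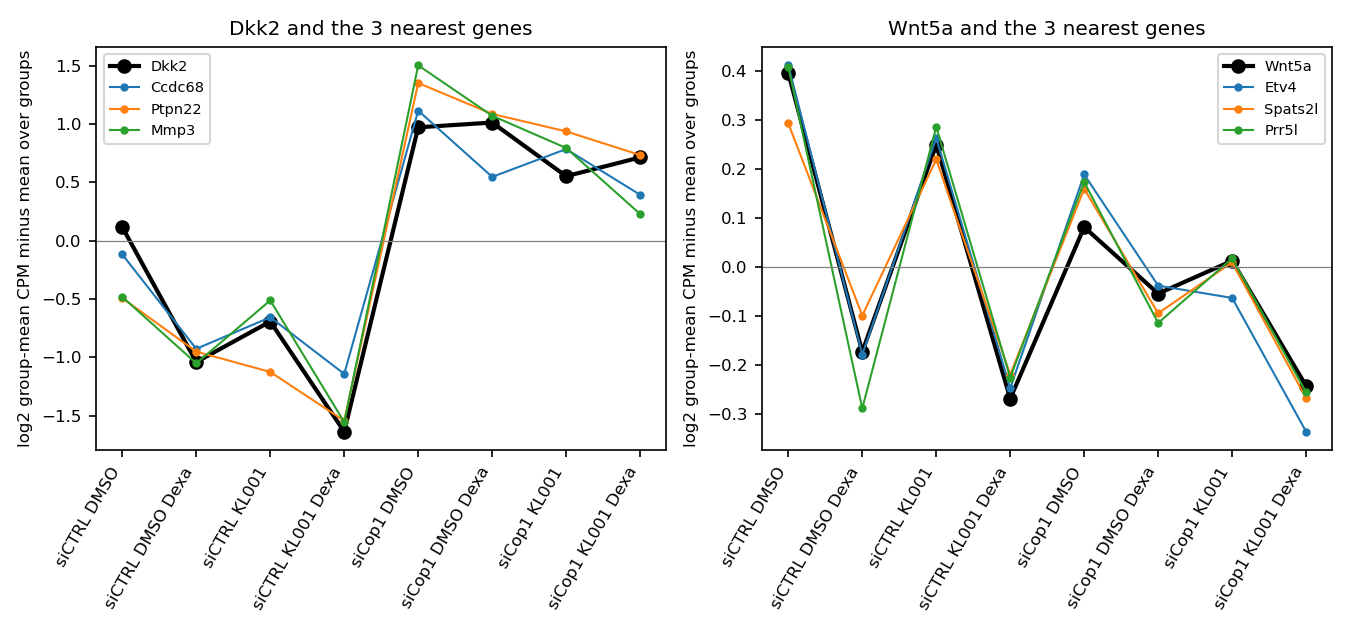
Centred log2 CPM of the group means (y axis) over the 8 groups (x axis) for Dkk2 and for Wnt5a, each with the 3 genes of smallest RMS difference. Dkk2 spans 2.65 on the log2 scale with neighbours at 0.305 to 0.347, and Wnt5a spans 0.66 with neighbours at 0.0580 to 0.0599.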

How the data were processed

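The authors deposited whole-number counts per gene, 1 column a library, and a table of normalized counts (a signal with no fixed unit). The submitters' processing notes name bcl2fastq 1.8.4, STAR 2.4.5a, featureCounts of Subread 1.4.6-p3, Picard 1.126, DESeq2 and the builds GRCm38 and mm10, with no role or order; no source used here gives the strand setting. Libraries were stranded mRNA libraries from column-purified RNA, per the labels. The normalized signal deposited by the authors equalled the counts divided by median-of-ratios factors in 100% of values within 0.011 and was not used further.

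The counts were tested with edgeR 4.0.16 (R 4.3.3, limma 3.58.1): low genes were removed by filterByExpr on the 8 groups with a count minimum of 10 and a total minimum of 15, TMM scaling was applied, and 1 robust quasi-likelihood fit of 8 group means was made to all 24 libraries. P-values were two-sided and Benjamini-Hochberg adjusted over 14772 genes, separately for 12 single-factor comparisons and 7 differences of responses. CPM are on the TMM scale, and log2 CPM for pattern likeness used a prior count of 2. The code was tested on simulated data. Positions, exon lengths and overlaps came from GENCODE annotation of GRCm38 and promoters from RefSeq.

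The 6 genes, the pathway and marker lists and the naming rule were chosen with earlier results of these data known. Pathway genes were named by size of change, up to 4 in each direction per comparison (2 for the difference between siRNAs), among genes past the threshold whose mean over the 24 libraries reached 1 CPM. Alternatives were RLE scaling, no filter, DESeq2 1.42.0, only the groups compared, a block on the replicate number and each library left out. Another, added after seeing the data, left out 3 of the 6 libraries high in heart markers.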

Additional observations from a re-analysis of the deposited data

Results flagged for a closer look

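The Dexa response of Wnt5a differed between siCTRL and siCop1 cells in DMSO by 0.43 on the log2 scale (SE 0.082, adjusted p = 0.00556 from the edgeR quasi-likelihood fit, BH adjusted), from -0.57 to -0.14, and a test of the difference itself put it here. That of Sfrp2 differed in KL001 by 0.21 (SE 0.047, adjusted p = 0.0302 in the same edgeR test), from -0.79 to -0.58. Without the 3 replicate 2 libraries high in heart muscle markers, the Sfrp2 difference was 0.17 with an adjusted p of 0.201. Causes were not tested.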

How the results depend on the processing

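No value for the 6 genes that passed the threshold changed direction under any alternative run. With RLE scaling the only count that moved by over 1.5 times was that for KL001 by Dexa in siCop1, 5 genes against 10. Without the filter on low counts the difference counts became 133 (KL001 by Dexa in siCTRL), 43 (in siCop1), 230 and 156 (siCop1 by Dexa in DMSO and KL001), 61 and 59 (siCop1 by KL001 without and with Dexa) and 30 (all 3 factors); calls were gained by Sfrp1 for KL001 (-0.82 in siCTRL, -0.84 in siCTRL with Dexa, -0.92 in siCop1 with Dexa) and for siCop1 with Dexa (-0.72 in DMSO, -0.80 in KL001), by Sfrp2 for KL001 by Dexa in siCTRL (-0.19), and by Wnt5a for Dexa in siCop1 DMSO (-0.14), KL001 in siCTRL (-0.14) and in siCop1 with Dexa (-0.19) and siCop1 by Dexa in KL001 (0.24).

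With DESeq2 Dkk3 lost its call for Dexa in siCTRL DMSO (0.26) and for KL001 in siCTRL (-0.31), and the counts were 3 for KL001 by Dexa in siCTRL, and 15 and 24 for siCop1 by KL001 without and with Dexa. With only the groups compared, calls were lost by Dkk3 for KL001 in siCTRL (-0.31) and Sfrp2 for siCop1 by Dexa in KL001 (0.21), and gained by Sfrp1 for KL001 in siCTRL (-0.82) and siCop1 in KL001 with Dexa (-0.79) and by Wnt5a for Dexa in siCop1 DMSO (-0.13), KL001 in siCop1 with Dexa (-0.19) and siCop1 in DMSO with Dexa (0.12); the gene counts were 225 for KL001 in siCTRL, 950 and 1435 for KL001 in siCop1 without and with Dexa, 24 for KL001 by Dexa in siCop1 and 52 for siCop1 by Dexa in KL001.

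Without the 3 libraries high in heart markers, an alternative chosen after seeing the data, Wnt5a gained calls for Dexa in siCop1 DMSO (-0.14), siCop1 in DMSO with Dexa (0.14), KL001 in siCop1 with Dexa (-0.19) and siCop1 by Dexa in KL001 (0.33), and calls were lost by Dkk3 for KL001 in siCTRL (-0.32) and Sfrp2 for siCop1 by Dexa in KL001 (0.17); values short of the threshold changed sign for Dkk3 in siCop1 by Dexa in KL001 (0.016), Wnt5a in KL001 by Dexa in siCTRL (-0.0075) and siCop1 by KL001 without Dexa (-0.0089) and Sfrp1 in siCop1 by KL001 with Dexa (0.10); counts were 1 for KL001 by Dexa in siCTRL and 5 and 5 for siCop1 by KL001 without and with Dexa. The siCTRL DMSO libraries, which also carry heart markers, stayed in this run. The causes were not tested.

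Replicate numbers were not taken as pairing the libraries, since no label says what a number shares and only 19 of 84 same-numbered pairs had deviations correlated above 0.1 (range -0.290 to 0.464, median 0.0119); still, 13 of 24 libraries correlated best with their own number, a hint from the data and not the design. With a replicate block, Sfrp1 gained calls for KL001 in siCTRL (-0.83) and siCTRL with Dexa (-0.87) and for siCop1 with Dexa in DMSO (-0.75) and KL001 (-0.78), the counts for KL001 by Dexa in siCop1 and siCop1 by KL001 with Dexa were 5 and 5, and no other call of the 6 genes changed.

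With 1 library left out at a time, 22 of the tested values for the 6 genes gained a call, 24 lost one and 36 that had not passed changed sign. The affected changes ran for Wnt5a from -0.16 to -0.12 (Dexa in siCop1 DMSO), -0.21 to -0.056 and -0.22 to -0.16 (KL001 in siCTRL and in siCop1 with Dexa), 0.20 to 0.35 (siCop1 by Dexa in KL001) and 0.091 to 0.14 (siCop1 in DMSO with Dexa); for Dkk3 from 0.22 to 0.30 (Dexa in siCTRL DMSO) and -0.35 to -0.26 (KL001 in siCTRL); for Sfrp2 from 0.17 to 0.25 (siCop1 by Dexa in KL001). Those of Sfrp1 ran from -0.93 to -0.72, -1.10 to -0.54 and -1.27 to -0.71 (KL001 in siCTRL, in siCTRL with Dexa and in siCop1 with Dexa), and -1.42 to -0.88, -0.93 to -0.38 and -1.11 to -0.55 (siCop1 in KL001, in DMSO with Dexa and in KL001 with Dexa). Gene counts ran from 653 to 1165 and 928 to 1808 for KL001 in siCTRL without and with Dexa, 502 to 932 in siCop1 with Dexa, 0 to 3 and 1 to 12 for KL001 by Dexa in siCTRL and siCop1, 43 to 94 for siCop1 by Dexa in KL001, and 0 to 7 and 2 to 15 for siCop1 by KL001 without and with Dexa. Values that never passed but changed sign ran for Sfrp1 from -0.0024 to 0.56 and -0.26 to 0.28 (Dexa in siCop1 DMSO and KL001), -0.071 to 0.62 (siCop1 by Dexa in KL001), -0.27 to 0.28 and -0.65 to 0.071 (KL001 by Dexa in siCTRL and siCop1), -0.17 to 0.37 and -0.42 to 0.18 (siCop1 by KL001 without and with Dexa) and -0.63 to 0.091 (all 3 factors). Those of Dkk3 ran from -0.0030 to 0.30 (Dexa in siCop1 KL001), -0.28 to 0.023 (KL001 in siCop1), -0.12 to 0.19 (siCop1 by Dexa in KL001), -0.15 to 0.15 (KL001 by Dexa in siCop1) and -0.015 to 0.29 (all 3 factors). For Wnt5a they were -0.026 to 0.075 (siCop1 in KL001 with Dexa), -0.037 to 0.12 (KL001 by Dexa in siCTRL) and -0.013 to 0.14 (siCop1 by KL001 without Dexa), and for Axin2 -0.017 to 0.079 and -0.081 to 0.056 (siCop1 in DMSO with Dexa and in KL001) and -0.058 to 0.039 (KL001 in siCop1 with Dexa). Counts per library were fewest for Sfrp1 (13 to 66), whose spread between replicates was the widest of the 6 genes.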
